A study of Mus musculus with 7 samples.

Results

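Mast cell proteases and receptors were followed through 7 bulk tumour libraries as 9 of the 32212 genes in the files: Cpa3, Cma1, Mcpt4, Tpsb2, Tpsab1, Kit, Ms4a2, Fcer1a and Hdc. The genes were given by name, and each was found by the Ensembl identifier that a gene name table pairs with its symbol, 1 identifier for each. The tumours were raised by injecting LLC cells, the mouse line named after Lewis lung carcinoma, under the axillary skin of wild-type (WT) C57BL/6J mice at 6 weeks of age. The ZQD group (3 libraries) received a high dose of Ze-qi decoction, a herbal preparation, at 42.67 g/kg, and the control group (4 libraries) was the untreated model. Both groups carried the same tumour cells. The design text gives day 21 of treatment for the RNA and the protocol puts the end on day 22 of the model. The labels count 8 mice per group without saying which mouse, or how many, stood behind a library, so the p-values cover only spread among the samples as deposited, part of which may be technical. The question is how the mast cell genes stood in treated and untreated tumours.

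Mast cells are tissue-resident granulocytes that mature in connective tissue and mucosa under stem cell factor, the ligand of the receptor tyrosine kinase Kit. Their granules hold histamine, serglycin proteoglycans and large amounts of proteases: tryptases, chymases and carboxypeptidase A3. Cross-linking of IgE on the high-affinity receptor, built from Fcer1a, Ms4a2 and Fcer1g, releases them. In mice, connective tissue mast cells are known for Cma1, Mcpt4, Tpsb2 and Cpa3, and mucosal mast cells for Mcpt1 and Mcpt2. Mast cells are known to gather around tumours, often in the surrounding connective tissue.

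Positions are those of the GENCODE M21 annotation of GRCm38. Cpa3 (ENSMUSG00000001865) is at chr3:20215620-20242181. The chymase genes share a stretch of chromosome 14, with Cma1 (ENSMUSG00000022225) at chr14:55941451-55944675 and Mcpt4 (ENSMUSG00000061068) at chr14:56059629-56062313. The tryptase genes share a stretch of chromosome 17, with Tpsb2 (ENSMUSG00000033825) at chr17:25366305-25369098 and Tpsab1 (ENSMUSG00000024173) at chr17:25343245-25345562. Kit (ENSMUSG00000005672) is at chr5:75574916-75656722, Ms4a2 (ENSMUSG00000024680) at chr19:11615523-11623719, Fcer1a (ENSMUSG00000005339) at chr1:173221284-173227214 and Hdc (ENSMUSG00000027360) at chr2:126593667-126619299.

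The 250 bases before the start of Cpa3, Cma1, Mcpt4 and Kit (RefSeq, GRCm38.p6) are shown because the first 3 genes moved together from library to library and Kit did not. Capitals mark GATAA or its reverse complement TTATC, the core read by GATA factors, which mast cells use.
Cpa3, chr3:20242182-20242431, minus strand: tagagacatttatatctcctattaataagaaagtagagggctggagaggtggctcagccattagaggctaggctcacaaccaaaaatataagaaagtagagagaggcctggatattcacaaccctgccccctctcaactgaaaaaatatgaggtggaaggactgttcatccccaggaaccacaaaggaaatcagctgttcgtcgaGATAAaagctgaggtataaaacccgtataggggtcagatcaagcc
Cma1, chr14:55944676-55944925, minus strand: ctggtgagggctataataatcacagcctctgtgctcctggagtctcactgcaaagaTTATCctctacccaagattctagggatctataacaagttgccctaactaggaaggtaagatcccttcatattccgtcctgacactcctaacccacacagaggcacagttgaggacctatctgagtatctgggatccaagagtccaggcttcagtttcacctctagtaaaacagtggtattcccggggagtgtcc
Mcpt4, chr14:56062311-56062560, minus strand: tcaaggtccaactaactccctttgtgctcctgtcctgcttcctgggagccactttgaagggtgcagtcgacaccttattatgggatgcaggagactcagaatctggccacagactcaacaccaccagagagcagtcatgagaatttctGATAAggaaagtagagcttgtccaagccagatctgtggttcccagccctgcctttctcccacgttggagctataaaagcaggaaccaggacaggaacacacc
Kit, chr5:75574737-75574986, plus strand, the first of 2 starts in the table: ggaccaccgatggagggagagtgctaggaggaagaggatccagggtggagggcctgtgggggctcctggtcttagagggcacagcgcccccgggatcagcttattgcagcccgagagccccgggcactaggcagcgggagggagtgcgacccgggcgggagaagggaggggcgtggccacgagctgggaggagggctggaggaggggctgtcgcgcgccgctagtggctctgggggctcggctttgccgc
The sequences differ in base composition, with a GC content of 44.4% for Cpa3, 48.0% for Cma1, 51.2% for Mcpt4 and 70.8% for Kit, against a median of 52.4% over all windows. Of 7 members with a promoter in the table, 5 held GATAA on either strand (Cpa3, Cma1, Mcpt4, Ms4a2 and Fcer1a), where 22.6% of all 32851 windows of this length do. The E-box CANNTG, searched on both strands and with none of its matches marked, stood in 4 of the 7, where 66.2% of windows hold it. A match is a description of letters and not a bound site. Tpsb2 and Tpsab1 were not matched.

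Levels are in FPKM (reads scaled by the length of the gene and the size of the library). The length was that of all exons of the gene, 1594 bases for Tpsb2 and 2094 for Tpsab1. The transcripts of these genes aligned below had 1081 and 1156 bases. Levels and ratios between genes therefore depend on the length used, while the values of 1 gene between libraries do not. The libraries held 34765330 to 38673663 counted reads in ZQD and 32065288 to 49914394 in controls. Low counts were mostly even: of genes with 1 to 20 reads, 65.4% to 66.5% had an even count in ZQD and 63.3% to 65.5% in controls, as reads counted in pairs would give, so counting intervals below use 1 pair for every 2 reads. Although the label calls the material tumour cells, the libraries held transcripts of many cell types. The leukocyte gene Ptprc was at 10.8 to 13.6 FPKM in ZQD and 9.90 to 13.7 in controls, and the mesenchymal gene Vim at 482.7 to 524.2 in ZQD and 459.8 to 703.9 in controls. The epithelial genes Krt8 and Epcam were at most 0.288 FPKM in every library. Mitochondrially encoded genes took 8.78% to 11.1% of reads in ZQD and 5.18% to 7.96% in controls, a larger share that lowers the FPKM of all other genes.

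In ZQD 1 and ZQD 2 the transcripts of Cpa3, Cma1, Mcpt4 and Tpsb2 stood above every control. In ZQD 3 Cpa3 lay among controls 2 to 4, and Cma1, Mcpt4 and Tpsb2 lay below every control. No member passed the test between groups. All 9 members were highest in ZQD 2, and 6 of 9 were lowest, or tied for lowest, in ZQD 3. For 8 of the 9, all but Kit, the 3 highest libraries were ZQD 1, ZQD 2 and control 1. The order within these 3 and among the other 4 libraries differed between genes. By mean FPKM over the libraries the order was Cpa3 (7.33), Cma1 (5.77), Mcpt4 (5.24), Tpsb2 (3.82), Hdc and Kit (both 1.08), Tpsab1 (0.526), Fcer1a (0.475) and Ms4a2 (0.214). Each step in this order was smaller than the SD of the higher gene over the ZQD libraries, except that from Kit to Tpsab1. In bulk tissue, fewer cells of a type and less RNA per cell cannot be told apart.

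**Figure D1:**
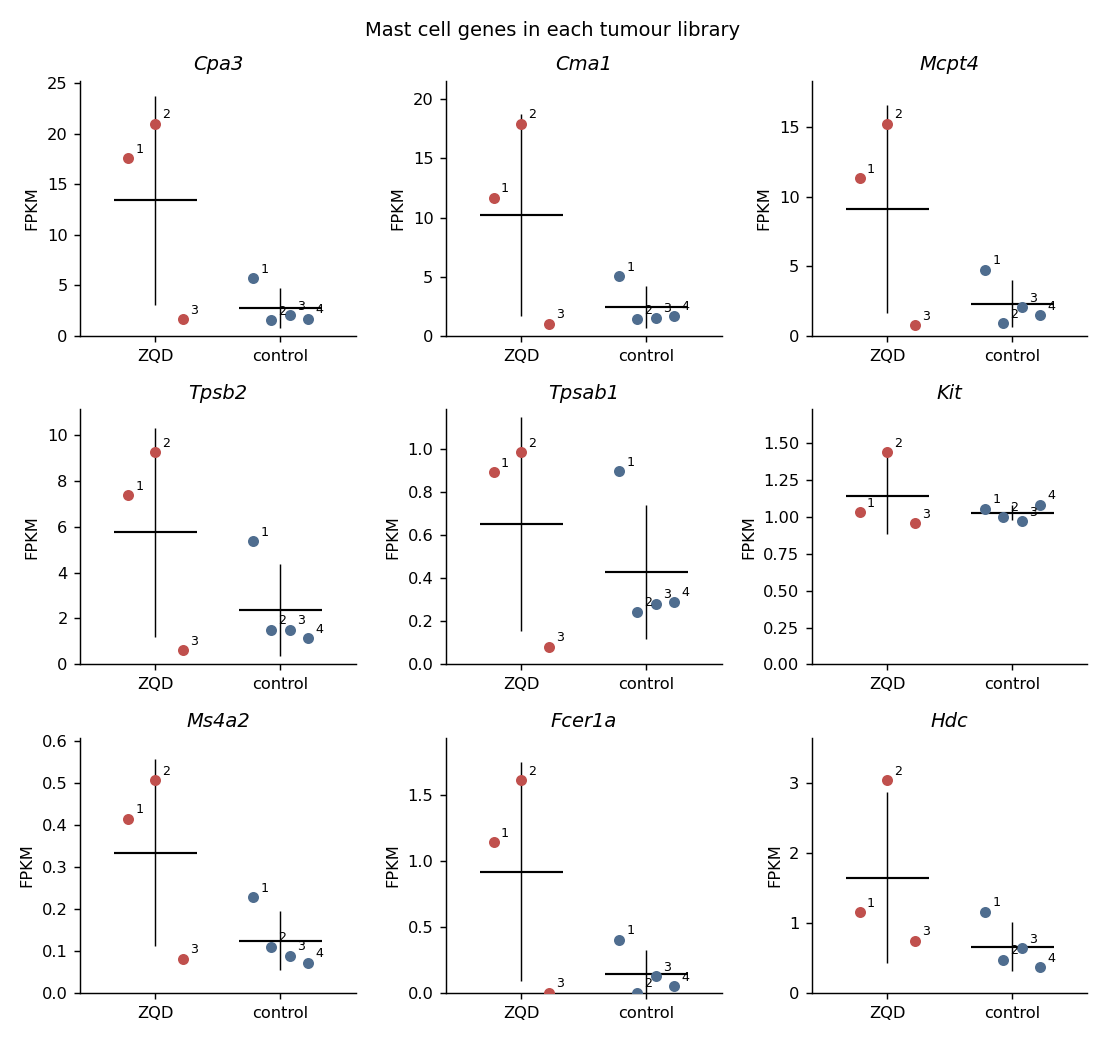
FPKM of the 9 mast cell genes in each library, with ZQD left and control right in every panel. Points are libraries labelled by replicate number, horizontal lines are means and vertical lines 1 SD, ended at 0. ZQD 1 and ZQD 2 stand above ZQD 3 in every panel, and control 1 is the highest control in all panels but that of Kit.

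Carboxypeptidase A3 (Cpa3), which trims peptides inside the granule, had the highest mean FPKM of the members. Cpa3 was at 17.6, 21.0 and 1.65 FPKM in ZQD 1 to 3, against 5.71, 1.56, 2.08 and 1.69 FPKM in controls 1 to 4. ZQD 1 and ZQD 2 lay above every control, and ZQD 3 lay inside the control range. The read numbers behind these values were 984, 1232 and 87 in ZQD and 432, 92, 101 and 101 in controls. The mean was 13.4 ± 10.3 FPKM in ZQD and 2.76 ± 1.98 in controls (SD, n = 3 and n = 4), and the log2 fold change was 1.69 (SE 0.77, adjusted p = 0.334 by limma over 14838 genes). This and every fold change below was taken as ZQD minus control after adding 0.5 to the FPKM, a step that shrinks the change of low genes. The two-sided exact permutation p, over all 35 assignments of the group labels, was 0.229. With ZQD 3 left out the fold change of Cpa3 was 2.76, and with ZQD 2 left out it was 1.10.

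Both chymases moved like Cpa3. Cma1, the ortholog of the human mast cell chymase, was at 11.7, 17.9 and 1.03 FPKM in ZQD 1 to 3, against 5.05, 1.42, 1.55 and 1.72 FPKM in controls 1 to 4. Mcpt4, the main chymotrypsin-like protease of mouse connective tissue mast cells, was at 11.4, 15.3 and 0.779 FPKM in ZQD 1 to 3, against 4.76, 0.929, 2.08 and 1.49 FPKM in controls 1 to 4. For both genes ZQD 3 was the lowest of all 7 libraries, so every control lay inside the ZQD range. The log2 fold change was 1.41 for Cma1 (SE 0.79, limma adjusted p = 0.422) and 1.32 for Mcpt4 (SE 0.83, limma adjusted p = 0.470). The exact permutation p was 0.257 for Cma1 and 0.286 for Mcpt4. Without ZQD 3 the fold change was 2.51 for Cma1 and 2.46 for Mcpt4. Without ZQD 2 it was 0.71 for Cma1 and 0.64 for Mcpt4, and without ZQD 1 that of Mcpt4 was 0.85.

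Tryptases, trypsin-like proteases stored as tetramers bound to heparin, had smaller differences in the same libraries. Tpsb2 was at 7.37, 9.25 and 0.614 FPKM in ZQD 1 to 3, against 5.37, 1.52, 1.51 and 1.15 FPKM in controls 1 to 4. Control 1 thus came much closer to the high ZQD libraries than it did for Cpa3. Tpsab1, which C57BL/6 mice are known to carry with a splice-site mutation, was at 0.894, 0.988 and 0.0824 FPKM in ZQD 1 to 3, against 0.899, 0.246, 0.283 and 0.291 FPKM in controls 1 to 4. Here control 1 lay between ZQD 1 and ZQD 2, and ZQD 3 stood below all controls with 6 reads. The log2 fold change was 0.82 for Tpsb2 (SE 0.75, limma adjusted p = 0.629) and 0.25 for Tpsab1 (SE 0.37, limma adjusted p = 0.782), with an exact permutation p of 0.429 for Tpsb2 and 0.657 for Tpsab1. Without ZQD 1, ZQD 2, ZQD 3 or control 1 the value was 0.40, 0.24, 1.81 or 1.23 for Tpsb2, and 0.05, 0.01, 0.68 or 0.46 for Tpsab1. The best aligned transcripts of the 2 tryptases shared 73.2% of 897 aligned positions with a longest common run of 39 bases. Those of Cma1 and Mcpt4 shared 66.4% of 697 positions with a longest run of 27. A read lying wholly within a common run could be assigned to either gene or dropped, and whether any read did so was not tested.

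The proportion of tryptase to carboxypeptidase separated the groups although the levels did not. The ratio of Tpsb2 to Cpa3, in FPKM, was 0.419, 0.440 and 0.372 in ZQD 1 to 3, against 0.941, 0.972, 0.726 and 0.678 in controls 1 to 4. All ZQD ratios lay below all control ratios, including that of ZQD 3. In that library Cpa3 lay among controls 2 to 4, while both tryptases lay below every control. The 95% Wilson intervals, which cover counting error only, ran from 0.383 to 0.507 in ZQD 2 and from 0.779 to 1.14 in control 1, and in ZQD 3, with 34 and 87 reads, from 0.214 to 0.647. Those of control 3 (0.478 to 1.10) and control 4 (0.444 to 1.04) overlapped the intervals of all ZQD libraries. The ratio of Tpsab1 to Cpa3 was 0.0508, 0.0470 and 0.050 in ZQD 1 to 3, against 0.158, 0.157, 0.136 and 0.172 in controls 1 to 4. It was nearly the same in all ZQD libraries while the Cpa3 level of ZQD 2 was over 10 times that of ZQD 3. With only 6 Tpsab1 reads, the interval of ZQD 3 reached from 0.0164 to 0.152 and covers the control 3 value. On the log2 scale the difference, ZQD minus control, was -1.001 for Tpsb2 to Cpa3 (-1.29 ± 0.13 in ZQD and -0.29 ± 0.26 in controls, SD, n = 3 and n = 4) and -1.66 for Tpsab1 to Cpa3 (-4.34 ± 0.06 in ZQD and -2.69 ± 0.14 in controls). Each had an exact permutation p of 0.0286, the smallest that 35 assignments can give.

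These ratios were chosen after their values were seen. Among the 10 ratios between the 5 proteases, 7 held a tryptase, and all 6 ratios with groups that did not overlap were among these 7. The 10 ratios share the same 5 genes, so these 6 are not separate events. The Benjamini-Hochberg adjusted permutation p over the 10 ratios was 0.0571 for both tryptase to Cpa3 ratios, which misses 0.05. The ratios of Cma1 and Mcpt4 to Cpa3 overlapped (exact permutation p = 0.143 for each), with 0.663, 0.854 and 0.624 for Cma1 in ZQD 1 to 3 and 0.886, 0.908, 0.744 and 1.02 in controls 1 to 4. The ratio to Cpa3 was lower in ZQD with no overlap for 0.930% of the 14837 other genes tested, and higher with no overlap for 0%. Cpa3 itself was at 17.6 and 21.0 FPKM in ZQD 1 and ZQD 2 and at 1.65 in ZQD 3. A gene that did not follow Cpa3 would mostly overlap for this reason, so these shares cannot say how unusual the tryptase ratios are. Leaving out 1 library at a time kept the log2 difference between -1.09 and -0.92 for Tpsb2 to Cpa3 and between -1.72 and -1.61 for Tpsab1 to Cpa3, where the smallest p the design allows is above 0.05. A ratio within a library does not depend on its scaling, and shows unequal levels without saying which gene differs.

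**Figure D2:**
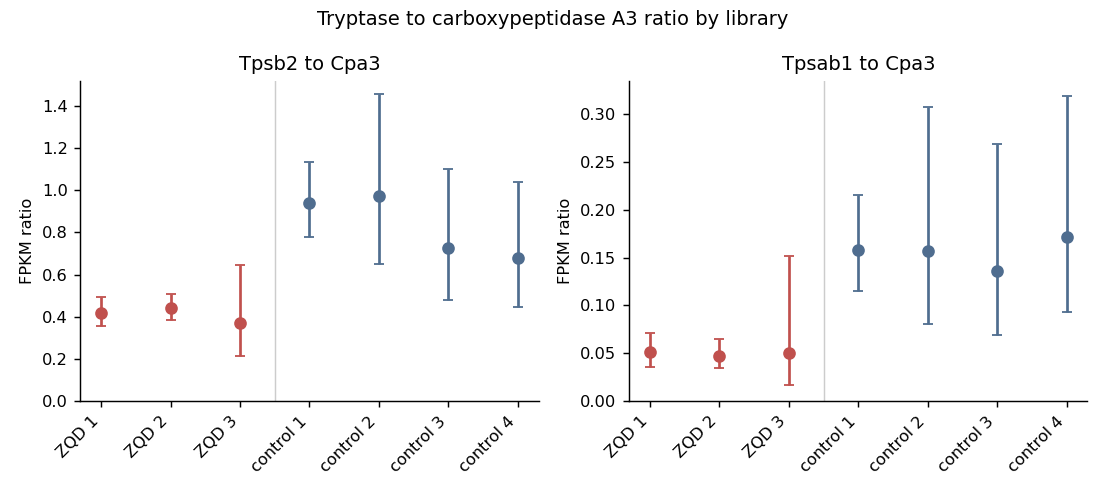
FPKM ratio of Tpsb2 to Cpa3 (left) and of Tpsab1 to Cpa3 (right) in each library, ZQD first and then control, with 95% Wilson intervals for counting error. ZQD points lie between 0.372 and 0.440 for Tpsb2 and between 0.0470 and 0.0508 for Tpsab1, below every control point.

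Mcpt1 and Mcpt2, the chymases of mucosal mast cells, had another order of libraries than the connective tissue type proteases. Mcpt2 was at 10.2, 0.146 and 0.380 FPKM in ZQD 1 to 3, against 16.9, 1.07, 4.97 and 2.94 FPKM in controls 1 to 4. Mcpt1 was at 1.52, 0.0510 and 0.0567 FPKM in ZQD 1 to 3, against 2.39, 0.558, 1.11 and 0.150 FPKM in controls 1 to 4. Both genes were low in ZQD 2, the library in which all 9 members were highest, and in ZQD 3. Mcpt2 had 6 reads in ZQD 2 and 14 in ZQD 3, and Mcpt1 had 2 reads in each, so the order of these libraries for Mcpt1 rests on library size. The log2 fold change was -1.38 for Mcpt2 (SE 1.06, limma adjusted p = 0.555) and -0.65 for Mcpt1 (SE 0.59, limma adjusted p = 0.628). Mcpt4 and Mcpt1 shared 82.2% of 997 aligned transcript positions with a longest common run of 46 bases. Here too, a read lying wholly within a common run could be assigned to either gene or dropped, which was not tested. In their list of other mast cell proteases, 6 of 7 genes were in the files and 3 were tested, of which 1 was higher and 2 were lower with 0 past the threshold. Gzmb, a granzyme also made by lymphocytes, was its most abundant member at 28.8, 42.9 and 54.8 FPKM in ZQD and 21.1, 37.9, 30.3 and 64.5 in controls.

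**Figure D3:**
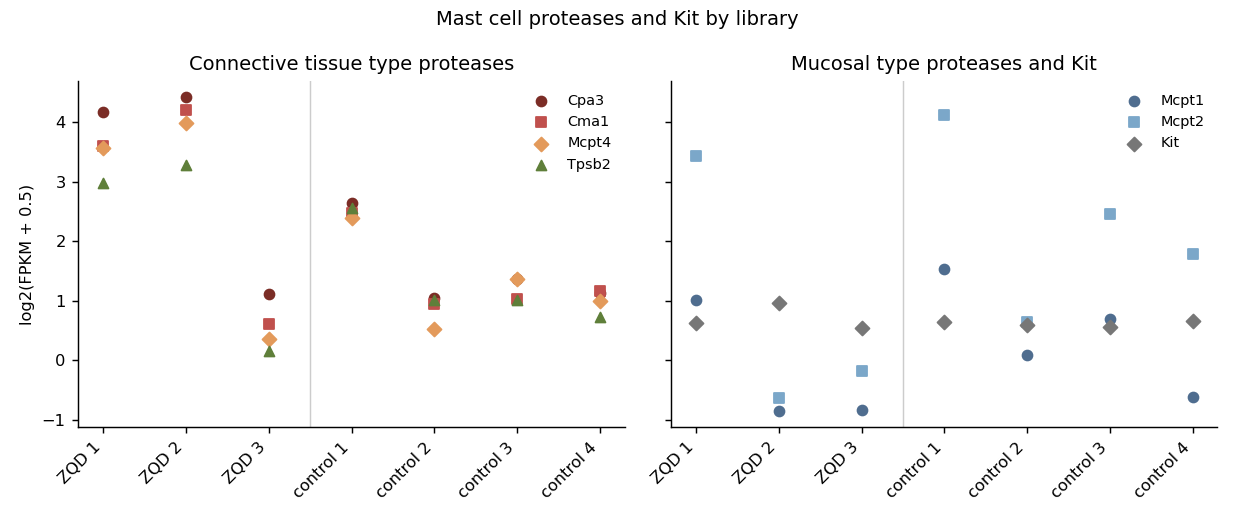
log2(FPKM + 0.5) of Cpa3, Cma1, Mcpt4 and Tpsb2 (left panel) and of Mcpt1, Mcpt2 and Kit (right panel) in each library, ZQD left of the grey line and control right. The connective tissue type proteases are highest in ZQD 2, Mcpt1 and Mcpt2 are highest in control 1 and low in ZQD 2 and ZQD 3, and Kit stays near the same level.

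The IgE receptor subunits of mast cells were low but had the same order as Cpa3 at the top. Fcer1a, the chain that binds IgE, was at 1.14, 1.61 and 0 FPKM in ZQD 1 to 3, against 0.401, 0, 0.125 and 0.0509 FPKM in controls 1 to 4. The reads were 42, 62 and 0 in ZQD and 20, 0, 4 and 2 in controls, and a count of 0, which allows 3 read pairs, allows up to 0.173 FPKM in ZQD 3 and 0.155 in control 2. Ms4a2, the signal-amplifying beta chain, was at 0.415, 0.506 and 0.0818 FPKM in ZQD 1 to 3, against 0.228, 0.110, 0.0887 and 0.0722 FPKM in controls 1 to 4. The groups overlapped for both genes. These 2 members did not reach 0.5 FPKM in 3 libraries and were left out of limma. Their log2 fold changes were 0.94 for Fcer1a (exact permutation p = 0.257) and 0.38 for Ms4a2 (exact permutation p = 0.229). That of Fcer1a was 0.53 without ZQD 2 and 1.57 without ZQD 3, and that of Ms4a2 was 0.23 without ZQD 2 and 0.63 without ZQD 3.

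Fcer1g, the signalling chain that this receptor shares with Fc receptors of macrophages and other cells, was far more abundant, at 213.6 ± 16.5 FPKM in ZQD and 168.2 ± 13.4 in controls (SD, n = 3 and n = 4). All ZQD libraries lay above all controls (log2 fold change 0.34, SE 0.10, limma adjusted p = 0.193), as they did for 5.35% of all genes tested. The macrophage markers measured in the same libraries were higher for 7 of 8 genes, 0 past the threshold, and summed to 728.8 to 908.3 FPKM in ZQD and 621.6 to 798.3 in controls. Among them Folr2 was at 4.00 to 11.7 FPKM in ZQD and 1.49 to 2.75 in controls, Mrc1 at 13.7 to 47.6 in ZQD and 4.55 to 11.2 in controls, and the complement gene C1qb at 285.3 to 343.7 in ZQD and 205.1 to 285.1 in controls. These 3 were named because their groups did not overlap, which for C1qb rests on 285.3 in ZQD 1 against 285.1 in control 3. The groups overlapped for all other genes of the list. Among these, Cd68 was at 219.3 to 333.0 FPKM in ZQD and 224.7 to 287.0 in controls. Adgre1 was at 11.5 to 19.4 in ZQD and 12.6 to 17.0 in controls, and C1qa at 162.4 to 163.4 in ZQD and 156.2 to 173.7 in controls. The part of macrophages in the Fcer1g value was not tested. Of 18 genes of IgE receptor signalling, 12 were higher and 6 lower with 0 past the threshold, and their median log2 fold change of 0.13 stands beside -0.04 over all genes tested. The adaptor Gab2 was at 8.68 to 10.1 FPKM in ZQD and 6.69 to 8.47 in controls (log2 fold change 0.25, limma adjusted p = 0.321).

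Kit, the receptor on which mast cells depend, stayed nearly level. Kit was at 1.03, 1.44 and 0.959 FPKM in ZQD 1 to 3, against 1.06, 1.00, 0.973 and 1.09 FPKM in controls 1 to 4. Apart from ZQD 2, all libraries lay within 0.959 to 1.09 FPKM. The highest library was 1.504 times the lowest, against 13.5 times for Cpa3. The log2 fold change was 0.09 (SE 0.14, limma adjusted p = 0.786, exact permutation p = 0.571). It was 0.14 without ZQD 1, 0.18 without ZQD 3 and -0.031 without ZQD 2. Kit is also known in melanocytes, whose list had 5 of 6 genes in the files and summed to 0.136 to 0.284 FPKM in ZQD and 0.0674 to 0.296 in controls, Pmel being the most abundant. Its ligand Kitl was at 24.2 to 34.4 FPKM in ZQD and 24.3 to 32.3 in controls (log2 fold change 0.14, limma adjusted p = 0.682).

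No lineage factor or growth receptor passed the threshold either. In the list around the Kit ligand, 16 of 17 genes were in the files and 13 were tested, 8 higher and 5 lower, with 0 past the threshold and a median log2 fold change of 0.07. Gata2, a transcription factor that mast cells need, was at 2.38, 3.89 and 4.18 FPKM in ZQD 1 to 3, against 3.86, 4.29, 2.93 and 2.77 FPKM in controls 1 to 4. It was lowest in ZQD 1, a library with high protease transcripts. The transcription factor Runx1 was below all controls in every ZQD library, as were 9.84% of all genes tested. It was at 5.52 to 6.70 FPKM in ZQD and 6.78 to 8.72 in controls (log2 fold change -0.24, limma adjusted p = 0.361). The groups were only just apart, at 6.70 in ZQD 3 and 6.78 in control 2, so their order may change with the scaling of the libraries. Tal1, another transcription factor, was too low for limma. It was above all controls in every ZQD library, at 0.223 to 0.590 FPKM in ZQD and 0.118 to 0.209 in controls, where 5.35% of all genes tested were so. ZQD 1 and control 4 each had 36 Tal1 reads, so the separation of these libraries rests on library size. Mitf, which drives mast cell and melanocyte genes, was at 6.95 ± 1.26 FPKM in ZQD and 6.17 ± 0.99 in controls (SD, n = 3 and n = 4, log2 fold change 0.16, limma adjusted p = 0.661). Ptpn6, a phosphatase of blood cells, was the most abundant gene of the list, at 34.6 to 43.7 FPKM in ZQD and 34.0 to 44.8 in controls.

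Hdc, the enzyme that makes histamine, followed the proteases in part. Hdc was at 1.15, 3.03 and 0.747 FPKM in ZQD 1 to 3, against 1.16, 0.475, 0.639 and 0.370 FPKM in controls 1 to 4. ZQD 2 alone stood above all controls, and ZQD 1 was level with control 1. The mean was 1.64 ± 1.22 FPKM in ZQD and 0.661 ± 0.351 in controls (SD, n = 3 and n = 4), and the log2 fold change was 0.78 (SE 0.36, limma adjusted p = 0.342, exact permutation p = 0.143), or 0.35 without ZQD 2. Neutrophils are another known source of Hdc. Their list, with 7 of 8 genes tested, 6 higher and 1 lower, summed to 43.7, 100.1 and 43.4 FPKM in ZQD 1 to 3 and to 65.1, 28.0, 57.1 and 34.8 in controls 1 to 4. The neutrophil sum was thus also highest in ZQD 2, as were the sums of the fibroblast, endothelial, blood and skin epithelium markers. The secreted protein Lcn2 was at 0.614 to 1.203 FPKM in ZQD and 0.190 to 0.368 in controls (log2 fold change 0.86, limma adjusted p = 0.154), and the protease Mmp9 at 7.49 to 26.5 in ZQD and 8.35 to 36.3 in controls. The part of neutrophils in the Hdc values was not tested. Of 7 genes of histamine receptors, transport and breakdown, 5 were in the files and 2 were tested, both higher with 0 past the threshold. The receptor Hrh2 was at 1.00 to 1.40 FPKM in ZQD and 0.620 to 1.08 in controls (log2 fold change 0.32, limma adjusted p = 0.387), and the histamine-degrading enzyme Hnmt at 0.423 to 0.906 in ZQD and 0.233 to 0.634 in controls (0.41, limma adjusted p = 0.416). Hrh1 was at most 0.0755 FPKM in ZQD and 0.175 in controls.

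Other genes of mast cells gave further values. Mrgprb2, a receptor known to be restricted to connective tissue mast cells in mice, had 30, 28 and 2 reads in ZQD 1 to 3, against 2, 0, 4 and 2 in controls 1 to 4. This is 0.392, 0.349 and 0.0277 FPKM in ZQD and 0.0193, 0, 0.0601 and 0.0244 in controls, so ZQD 1 and ZQD 2 stood out and, unlike for the proteases, control 1 did not. It was below the filter and not tested. Its neighbour in the family, Mrgprb1, was at 1.06, 0.877 and 0.0550 FPKM in ZQD and 0.421, 0.123, 0.156 and 0.0607 in controls. Of the 18 genes in this list 9 were tested, 6 higher and 3 lower, with 0 past the threshold and a median log2 fold change of 0.02. Il1rl1, the interleukin 33 receptor that mast cells share with other cells, was at 22.7 to 30.1 FPKM in ZQD and 45.8 to 84.9 in controls (log2 fold change -1.02, limma adjusted p = 0.154). It was below all controls in every ZQD library, where 9.84% of all genes tested were so. Cd63, a granule membrane protein of many cells and the most abundant of the list, was at 66.1 to 76.4 FPKM in ZQD and 67.1 to 80.5 in controls.

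Serglycin (Srgn), the core protein to which the granule proteases bind, is made by many blood cells. Srgn was at 60.4, 95.7 and 48.3 FPKM in ZQD 1 to 3, against 46.5, 43.7, 43.5 and 32.0 FPKM in controls 1 to 4. All ZQD libraries lay above all controls, and the log2 fold change was 0.67 (SE 0.22, limma adjusted p = 0.242). Of 12 genes of serglycin, heparin synthesis and amine loading, 4 were higher and 8 lower, with 0 past the threshold and a median log2 fold change of -0.15. Ctsc, which activates granule proteases, was at 72.8 to 81.9 FPKM in ZQD and 52.8 to 73.4 in controls. Among 9 genes of protease inhibitors, 5 were tested and all 5 were higher, with 0 past the threshold. Serpina3n, a secreted inhibitor of serine proteases, was at 15.9, 15.1 and 0.181 FPKM in ZQD 1 to 3, against 2.72, 0.162, 0.408 and 0.0861 FPKM in controls 1 to 4. It thus shared its 3 highest libraries with Cpa3 (log2 fold change 2.44, SE 1.11, limma adjusted p = 0.334). Serpinb6a, an inhibitor inside cells, was at 33.0 to 40.2 FPKM in ZQD and 27.9 to 32.3 in controls (log2 fold change 0.31, limma adjusted p = 0.214).

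Basophils share Cpa3, Fcer1a, Ms4a2 and Hdc with mast cells, so their markers were set beside these genes. The basophil protease Mcpt8 was at 0.326, 0.285 and 0.288 FPKM in ZQD 1 to 3, against 0.221, 0.155, 0.469 and 0.407 FPKM in controls 1 to 4, with at most 16 reads. Prss34, another basophil protease, had at most 0.0848 FPKM. Over the 8 basophil genes the summed level was 7.62 to 9.76 FPKM in ZQD and 8.00 to 11.6 in controls, and of 4 tested 0 were higher, 4 lower and 0 past the threshold. Its most abundant gene, the integrin Itga2, was at 3.13 to 4.55 FPKM in ZQD and 2.95 to 5.82 in controls. ZQD 2, highest for all 9 members, was the lowest but 1 for this sum. Mcpt8, Prss34 and Cd200r3 were each under 0.5 FPKM in every library, so the sum and its order rest mostly on other genes of the list. The genes of the list did not share 1 order. Il4, at 2.13 to 2.92 FPKM in ZQD and 2.36 to 3.27 in controls, was highest in control 1. Cd200r3, at 0 to 0.186 FPKM in ZQD and 0.0417 to 0.131 in controls, had the same 3 highest libraries as Cpa3. The part of basophils in the mast cell values was not tested.

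Summed markers of other cell types were set beside the mast cell genes. The 9 members summed to 52.6, 71.0 and 5.94 FPKM in ZQD 1 to 3 and to 24.6, 7.26, 9.32 and 7.92 in controls 1 to 4. The 8 fibroblast markers summed to 82.6, 186.4 and 30.1 FPKM in ZQD 1 to 3 and to 120.8, 51.7, 63.7 and 25.3 in controls 1 to 4, with ZQD 2, control 1 and ZQD 1 as the 3 highest, and the collagen gene Col3a1 was the most abundant, at 12.6 to 68.1 in ZQD and 17.0 to 53.3 in controls. The fibroblast genes did not share 1 order, since Dcn and Lum were highest in control 1, and Pdgfra was at 4.15 FPKM in ZQD 2, against 8.51 in control 1. The 7 adipocyte markers summed to 77.4, 19.2 and 4.96 FPKM in ZQD and to 6.84, 3.56, 8.16 and 8.71 in controls, and Adipoq, which defines fat cells, was at 10.1, 1.48 and 0 in ZQD and at most 0.452 in controls. The 8 skin epithelium markers summed to 0.544, 9.69 and 0.864 FPKM in ZQD and to 0.488 to 0.551 in controls. Krt10 was the most abundant of them. The basal keratin gene Krt5 was at 2.24 FPKM in ZQD 2 and 0.0284 in control 3, and was listed at 0 in 2 of 3 ZQD and 3 of 4 control libraries. Blood markers, led by the globin gene Hbb-bs, summed to 78.3, 413.8 and 61.5 FPKM in ZQD and 67.4 to 241.9 in controls. Skeletal muscle markers, led by Mylpf, were highest in control 1, at 27.2 FPKM, against 2.87 to 9.61 in ZQD and 2.18 to 3.55 in the other controls. The 6 endothelial markers, led by Cdh5, summed to 17.3 to 35.2 FPKM in ZQD and 17.1 to 28.2 in controls, and the 6 dendritic cell markers, led by Itgax, to 11.7 to 26.3 in ZQD and 20.4 to 34.9 in controls. The 4 leukocyte markers summed to 28.2 to 30.3 FPKM in ZQD and 17.7 to 25.3 in controls, with Itgam at 13.5 to 18.6 in ZQD and 6.01 to 10.2 in controls (limma adjusted p = 0.161). Of the tested genes, 5 of 6 fibroblast, 3 of 3 adipocyte, 3 of 4 muscle, 6 of 6 endothelial, 4 of 7 blood, 2 of 5 dendritic cell, 1 of 2 tumour and 3 of 3 leukocyte markers were higher, and no skin or melanocyte gene was tested. None of the 20 lists had a gene past the threshold in limma (0 of 116 tested genes, 14 at an unadjusted p under 0.05, a level that 15.5% of all genes reached, and 78 higher). edgeR called 0 of them, and DESeq2 called 6, against 517 of 12525 over all genes given an adjusted p. The part of these cell types in the mast cell values was not tested.

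**Figure D4:**
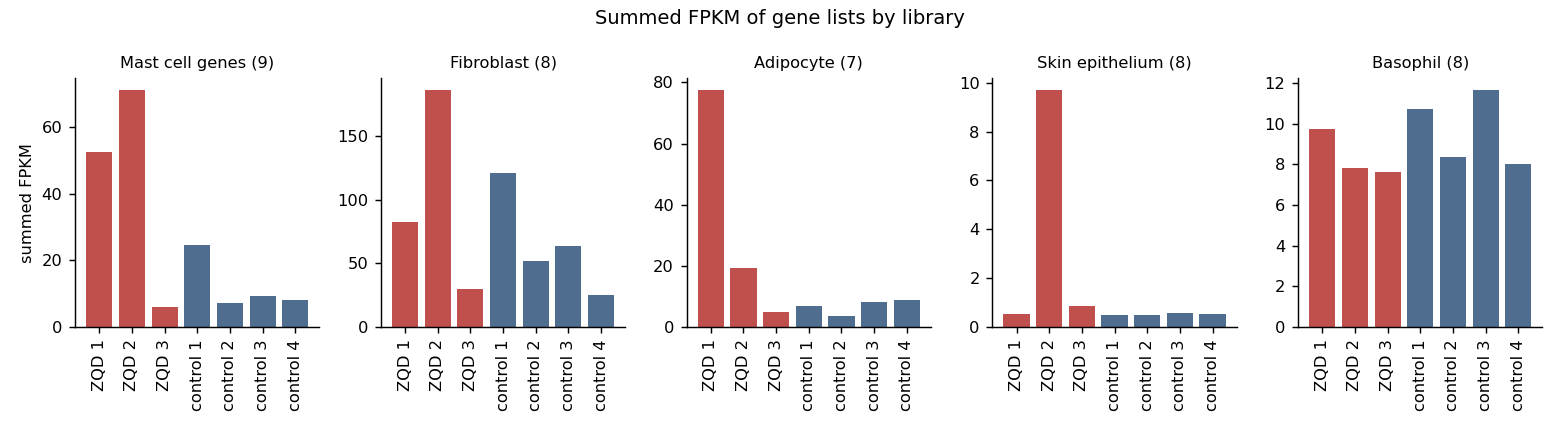
Summed FPKM of the 9 mast cell genes and of the fibroblast, adipocyte, skin epithelium and basophil markers in each library, ZQD left of control in each panel, with the number of genes in brackets. ZQD 1, ZQD 2 and control 1 have the highest mast cell and fibroblast sums, while the basophil sum lies between 7.62 and 11.6 in all libraries.

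By likeness of profile, the genes closest to Cpa3 were the chymases and genes of secreted and matrix proteins. Likeness was the root mean square difference of log2(FPKM + 0.5) over the 7 libraries, each gene centred on its mean. Cma1 (0.20) and Mcpt4 (0.25) were the nearest of all genes tested. The 6 nearest genes outside the set were the extracellular superoxide dismutase Sod3 (0.26), the matrix protein Fbln2 (0.36), the chemokine Ccl11 (0.37), the secreted glutathione peroxidase Gpx3 (0.41) and the microfibril proteins Mfap4 (0.41) and Mfap5 (0.45). Sod3, for example, was at 5.67, 8.35 and 0.585 FPKM in ZQD 1 to 3, against 1.89, 0.454, 0.993 and 0.272 FPKM in controls 1 to 4. Tpsb2 ranked 9 by this measure, Hdc 52, Tpsab1 66 and Kit 1804.

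Across the whole table, limma called 0 of 14838 genes (0%) at an adjusted p under 0.05, and 15.5% had an unadjusted p under 0.05. Of the 7 members tested, 0 passed adjusted and 0 at an unadjusted p under 0.05, where 5.21% of all genes were higher at that level, and all 7 had a positive fold change. The groups overlapped for all 7, while they did not for 15.2% of all genes tested. A log2 fold change of at least 1 was seen for 3 of the 7 (Cpa3, Cma1 and Mcpt4), against 0.580% of all genes. Count models run on rebuilt reads (edgeR and DESeq2) called 0 of the 7 as well, where edgeR called 0% of all genes and DESeq2 4.13% of the 12525 it gave an adjusted p. In each, 4 of the 7 were higher at an unadjusted p under 0.05, against 7.65% of all genes in edgeR and 8.01% in DESeq2. For 8 of the 9 members the 3 highest libraries were the same, so these 4, like the 3 above, are not separate events. The 4 were Cpa3, Cma1, Mcpt4 and Hdc, with an edgeR adjusted p of 0.209 for Cpa3, 0.250 for Cma1, 0.285 for Mcpt4 and 0.257 for Hdc. Within groups, the spread of Cpa3, Cma1, Mcpt4 and Tpsb2 was among the largest of all genes, with a pooled SD of 1.27 to 1.40 on the log2(FPKM + 0.5) scale against a median of 0.17. That of Kit was 0.14.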

How the data were processed

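mRNA sequencing of 7 tumour libraries was analysed, 3 ZQD and 4 control, grouped by sample titles. Per the labels' protocols, poly(A) RNA was sequenced as paired ends. FPKM were deposited for each of the 7 libraries, and read counts by gene also for controls 1 and 2. HISAT2, featureCounts, Subread and DESeq2 are named in the submitters' processing notes, while the sources used here give neither roles nor versions, build or strandedness. FPKM, count and total gave a length for 27421 of 32212 genes, equal to the GENCODE M21 exon length for 98.2% of those compared, and with it reads were rebuilt (100% within 0.05 of a whole number). Symbols matched 98.0% of identifiers, and where 2 shared a symbol the one of higher mean was taken.

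The main test was limma 3.58.1 under R 4.3.3 (trend, two-sided), applied to log2(FPKM + 0.5) of 14838 genes at 0.5 FPKM or more in at least 3 libraries, Benjamini-Hochberg adjusted, threshold 0.05. Single genes also had an exact permutation test over 35 label assignments. edgeR 4.0.16 and DESeq2 1.42.0 ran on the rebuilt reads as alternatives, beside other pseudocounts, filters, scalings, library weights, a replicate block and libraries left out. The tests were first tried on simulated data. Of genes outside the set, the text names those with groups apart and an unadjusted p under 0.05 (at most 3 per list), the most abundant of a list, a fixed set of background genes and the 6 nearest to Cpa3. Adipoq, Krt5, Dcn, Lum, Pdgfra, Runx1, Tal1, Prss34, Cd200r3, Il4, Mcpt1, Mcpt2, Mrgprb1, Krt8 and Epcam were named after their values were seen. So were Cd68, Adgre1 and C1qa. The members and lists were chosen with earlier results of these data known. Transcripts were aligned with Biopython 1.88 and figures drawn with matplotlib 3.10.9.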

Additional observations from a re-analysis of the deposited data

Results flagged for a closer look

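In control 1, 4 proteases stood apart from the other controls, in that the gap to the nearest control took more of the group's range than Dixon's 95% critical value for 4 samples. These were Cpa3 at 5.71 FPKM, Cma1 at 5.05, Tpsb2 at 5.37 and Tpsab1 at 0.899, with gaps of 0.876, 0.916, 0.912 and 0.931 of the range. Chance flags about 1 in 20 such groups where values are normally distributed. The gaps were taken on FPKM without the log2 step, where a high value may be flagged more often. In all, 9 genes were looked at, and these 4 share 1 library, so they are not separate events. Control 1 also had the most reads (49914394) and the highest muscle marker sum (27.2 FPKM) of the 7 libraries. Groups of 3, such as ZQD, are not tested in this way.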

How the results depend on the processing

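The count of members past the threshold was 0 under all 19 alternatives. Of 129 fold changes of members under them, 128 kept their sign. The exception was Kit without ZQD 2 (-0.031, against 0.09 with all libraries, with the other values of Kit reaching 0.18 where 1 library was left out and 0.203 by DESeq2). The log2 fold change of Cpa3 ran from 1.10 to 2.76, with adjusted p from 0.126 to 0.604. DESeq2 called 517 genes in the whole table, 6 of them in the lists (Fcer1g, Il1rl1, Itgam, Folr2, Srgn and Serpinb6a) and none a member, and had 1188 higher genes at an unadjusted p under 0.05 in place of 773. It gave no adjusted p for Tpsab1. That count was 1383 with no filter and 377 on the TPM scale, where 2861 were lower, against 1533, and the median gene stood at -0.15, against -0.04. The split of higher against lower was 1097 to 1082 with median-of-ratios, 1093 to 1093 with TMM and 1142 to 1046 without mitochondrially encoded genes. The replicate block called 1 gene, Marco, and no member. Same-numbered libraries had correlations of deviations of 0.25, 0.0998 and -0.15, and ZQD 1 with control 3 had 0.255. So few values cannot decide whether the numbers pair the samples. The cause of these shifts was not tested. Under 100 reads stood behind 3 of 4 control values and 1 of 3 ZQD values of the chymases and Tpsb2, and Fcer1a had none in ZQD 3 and control 2.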
